A study of Mus musculus with 4 samples.

Results

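The whole tumor libraries and the tumor Treg library held 1025 assembled transcripts that lay between annotated genes, out of 59227 transcripts in all. A transcript was counted as intergenic where its whole span, introns included, shared no base with the span of any gene of the GENCODE M21 annotation (mouse build GRCm38, the same assembly as mm10) on either strand. There were 362 of 22481 transcripts with Control SMO in whole tumor (1.61%, 95% exact binomial interval 1.45 to 1.78%), 584 of 31908 with LFPRLR SMO in whole tumor (1.83%, 1.69 to 1.98%) and 79 of 4838 in tumor Tregs (1.63%, 1.29 to 2.03%). These and all later intervals treat transcripts or loci as independent and say nothing of the spread between mice. The intervals of the 3 libraries overlapped.

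All mice were female Foxp3+EGFP Balb/c mice, 8 weeks old, which carry a green fluorescent protein under control of the Treg transcription factor gene Foxp3 and bore orthotopic tumors of the Balb/c mammary carcinoma line 4T1. They received Control SMO or LFPRLR SMO, antisense oligomers that act on splicing, the second aimed at the long form of the prolactin receptor, for 12 days at 100 pmoles/h/mouse. RNA of 6 mice was pooled for each library and depleted of rRNA, so each group was a single sample, no difference between libraries had a replicate check, and no test, SD or p-value is given. Tregs were sorted by EGFP from tumors of further mice, and their values were the same under both treatment labels for all 4838 transcripts, so they were used once.

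The cell type labels were checked against marker genes. The whole tumor libraries each listed all 5 markers of 4T1 epithelium and all 5 of fibroblasts, but 1 of 6 Treg and T cell markers. The tumor Treg library listed 0 of those 6 markers, Foxp3 and Cd4 among them. It listed all 6 macrophage markers with a summed level of 271 FPKM, against 306 and 201 FPKM in the whole tumor libraries. It also listed 4 of 5 epithelial markers, at 10.5 FPKM against 224 and 196 in whole tumor. Of the fibroblast markers it listed 3 of 5, at 5.08 FPKM against 107 and 134. The tumor Treg transcripts therefore went against their label, and which cells they came from was not tested. In pooled tissue, fewer cells of a type and less RNA per cell cannot be told apart.

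Transcripts between genes have several known sources. RNA polymerase II often runs on past the end of a gene before it stops, and most active promoters also start short, unstable transcripts in the opposite direction, away from the gene. Long intergenic noncoding RNAs are separate genes, usually capped, spliced and polyadenylated, and annotations differ in which of them they list. Depletion of rRNA, unlike selection of poly(A) RNA, keeps all of these in the library.

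Spliced members were few. In both whole tumor libraries some lay over Gm46162, a predicted noncoding RNA gene of RefSeq that GENCODE M21 does not hold. The RefSeq promoter windows below (GRCm38.p6, each read along the strand of its gene) are shown because exons of intergenic transcripts reached into them, and capitals mark the bases covered by such an exon. For the noncoding genes the window runs from 250 bases before the RefSeq start to 50 bases after it, and for the protein-coding genes the 250 bases before the start are given. The first is from chromosome 1, minus strand, chr1:151250491-151250790, with the exon of the Control SMO library in capitals.
Gm46162: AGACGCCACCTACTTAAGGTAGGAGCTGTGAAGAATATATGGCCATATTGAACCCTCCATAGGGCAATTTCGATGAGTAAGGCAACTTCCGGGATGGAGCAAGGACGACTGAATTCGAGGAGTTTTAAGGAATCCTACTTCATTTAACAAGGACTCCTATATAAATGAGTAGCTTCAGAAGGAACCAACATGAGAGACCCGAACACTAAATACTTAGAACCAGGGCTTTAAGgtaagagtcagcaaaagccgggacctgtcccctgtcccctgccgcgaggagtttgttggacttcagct
Its exon ended at the capitals AAG, and the intron that followed opened with gtaaga, so that its first bases were GT, the dinucleotide of a splice donor. With LFPRLR SMO a further transcript ended its first exon within the same window and its intron opened at base 19 with gtagga, again with GT first. The second window is from the tumor Treg library, where a transcript with 2 exons lay over Gm52717, also a predicted noncoding RNA gene of RefSeq, on the minus strand at chr4:32160854-32161153.
Gm52717: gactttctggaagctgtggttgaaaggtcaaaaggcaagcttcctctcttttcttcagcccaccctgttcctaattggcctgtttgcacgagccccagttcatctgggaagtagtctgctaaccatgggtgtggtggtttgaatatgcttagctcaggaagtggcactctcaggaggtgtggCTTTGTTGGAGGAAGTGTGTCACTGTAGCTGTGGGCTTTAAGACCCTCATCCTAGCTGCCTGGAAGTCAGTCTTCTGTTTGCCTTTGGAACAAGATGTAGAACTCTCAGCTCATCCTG
The next 3 windows stand before protein-coding genes, where unspliced intergenic transcripts had an end close to the annotated start. They are those of Ppp6r3, a regulatory subunit of protein phosphatase 6 (minus strand, chr19:3575750-3575999, Control SMO), of Kmt2d, a histone H3 lysine methyltransferase (minus strand, chr15:98871206-98871455, LFPRLR SMO), and of Sos2, an exchange factor that activates Ras (minus strand, chr12:69681853-69682102, LFPRLR SMO).
Ppp6r3: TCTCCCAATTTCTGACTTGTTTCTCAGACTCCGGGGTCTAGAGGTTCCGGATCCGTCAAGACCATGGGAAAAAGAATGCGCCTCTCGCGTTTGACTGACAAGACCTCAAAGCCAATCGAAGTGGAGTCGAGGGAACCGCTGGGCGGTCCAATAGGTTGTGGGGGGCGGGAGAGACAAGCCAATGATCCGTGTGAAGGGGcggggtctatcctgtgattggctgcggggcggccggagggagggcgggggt
Kmt2d: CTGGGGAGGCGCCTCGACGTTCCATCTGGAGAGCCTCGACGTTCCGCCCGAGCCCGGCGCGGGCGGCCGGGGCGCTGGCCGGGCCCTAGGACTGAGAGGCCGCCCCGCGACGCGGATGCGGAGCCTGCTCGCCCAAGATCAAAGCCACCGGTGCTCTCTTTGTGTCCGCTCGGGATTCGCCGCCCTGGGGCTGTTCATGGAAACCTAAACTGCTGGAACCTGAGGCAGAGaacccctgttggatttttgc
Sos2: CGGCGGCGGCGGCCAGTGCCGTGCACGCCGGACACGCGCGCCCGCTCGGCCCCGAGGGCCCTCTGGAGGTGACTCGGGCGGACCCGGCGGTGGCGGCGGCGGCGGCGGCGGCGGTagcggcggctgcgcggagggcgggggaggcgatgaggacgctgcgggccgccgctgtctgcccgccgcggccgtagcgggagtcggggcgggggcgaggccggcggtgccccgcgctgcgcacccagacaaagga
In each of these 3 the capitals lie at the far end of the window and stop short of the GENCODE gene, 51 bases before it for Ppp6r3, 21 bases for Kmt2d and 135 bases for Sos2. RefSeq also gives Ppp6r3 and Kmt2d longer models that the transcripts overlapped, and the Ppp6r3 transcript overlapped the tRNA gene n-TAagc9. The Ppp6r3 sequence was 59.2% G and C with 17 CpG dinucleotides, that of Kmt2d 67.6% with 26, and that of Sos2 82.8% with 47.

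Nearly all members had a single exon. With Control SMO 355 had 1 exon and 7 had more, with LFPRLR SMO 576 had 1 and 8 had more, and in tumor Tregs 76 had 1 and 3 had more. That is 1.93%, 1.37% and 3.8% with more than 1 exon, whereas 67.2%, 47.3% and 73.7% of the transcripts overlapping a gene had more than 1. A strand was given for 8.84%, 7.53% and 19% of the members, so for most of them the strand of origin is unknown.

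The 18 transcripts with more than 1 exon held 16 different introns of 99 to 7753 bases. Of these introns 3 were found in more than 1 library, and 13 of the 18 transcripts lay over a RefSeq gene. At Gm46162 the same intron of 7539 bases (chromosome 1, 151243020 to 151250558) was assembled with Control SMO, in a transcript at an FPKM of 4.96, and with LFPRLR SMO, in one at 3.89. FPKM is the number of sequenced fragments divided by the length of the transcript and by the size of the library. A second intron, of 5580 bases (151243020 to 151248599), was also in both, and the only transcript with 3 exons with LFPRLR SMO, at 3.10, joined the 3 exons of this locus. These transcripts lay about 10 kb from the nearest GENCODE gene, the snRNA gene Gm24402, with distances of 9915 to 11774 bases, and no intergenic transcript was listed there in tumor Tregs.

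**Figure D1:**
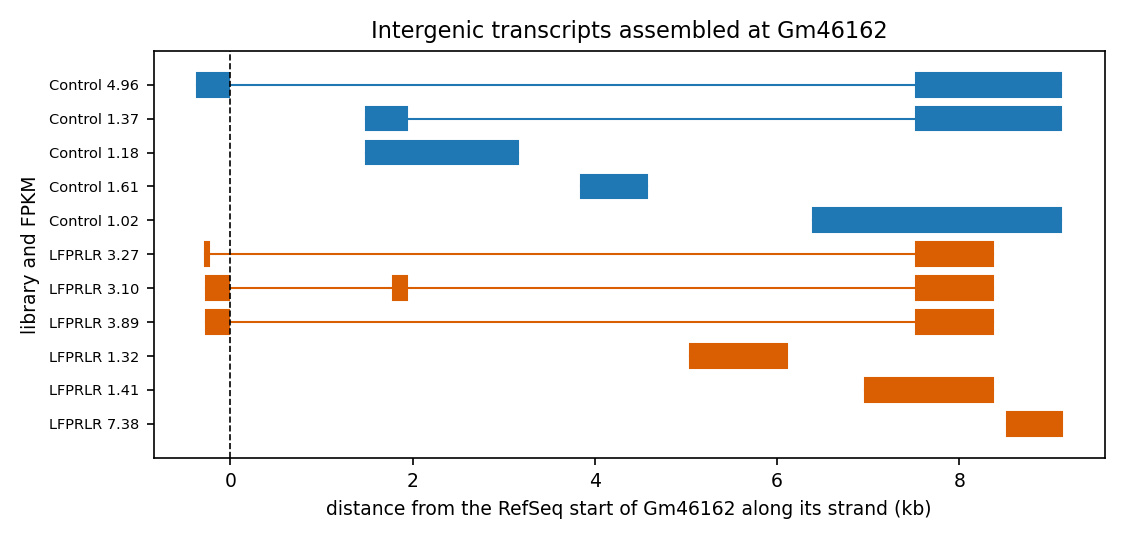
Exons (boxes) and introns (lines) of the intergenic transcripts over Gm46162 in both whole tumor libraries, against the distance in kb from the RefSeq start of the gene along its strand (dashed line), with the FPKM of each transcript on the vertical axis. The first exon lay just before the RefSeq start in both libraries, and the intron of 7539 bases from it to the last exon was shared.

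The 1 intron found in all 3 libraries lay in D17H6S56E-5, a protein-coding gene of RefSeq next to Vars, the gene of valyl-tRNA synthetase (chromosome 17, intron of 697 bases from 34999470 to 35000166). Its transcript had 2 exons and was at an FPKM of 30.8 with Control SMO, 21.6 with LFPRLR SMO and 3.54 in tumor Tregs, where it was also the longest member, at 2886 bases. It was on the minus strand, and its 5′ end lay 638 to 641 bases before the start of Vars, which is on the plus strand. The introns of the other spliced members were assembled in 1 library each. With Control SMO these included 3 exons beside Gm20544 on chromosome 18 (75359758 to 75364339) at 1.34, 2 exons over AB010352 on chromosome 5 (109880117 to 109884515) at 2.14 and 2 exons 125 bases past the end of Hipk2, a nuclear kinase gene whose RefSeq model is longer than that of GENCODE, at 0.594. With LFPRLR SMO a transcript of 2 exons on chromosome 8 (84206169 to 84207333), at 1.95, lay 1184 bases before Mir23a, a microRNA gene. In tumor Tregs the Gm52717 transcript was at 3.48, and one of 2 exons 150 bases before Gm47283 on chromosome Y was at 4.03.

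Members were shorter than the transcripts over genes. Their median exonic length was 1060 bases with Control SMO (range 46 to 7160), 985 with LFPRLR SMO (40 to 7292) and 301 in tumor Tregs (85 to 2886), against medians of 1372, 1164 and 817 bases for transcripts over genes. Single-exon transcripts over genes had medians of 1042, 966 and 426.5 bases, so in whole tumor the members were close in length to other unspliced transcripts. The longest member with Control SMO (chromosome 4, 12102243 to 12109402) was at an FPKM of 1.31 and lay within the RefSeq model of Rbm12b2. The longest with LFPRLR SMO (chromosome 9, 32979908 to 32987199) was at 2.49 and lay 7523 bases from Gm37192.

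Most members were low. The median FPKM was 1.67 with Control SMO (quartiles 1.18 and 2.88), 1.86 with LFPRLR SMO (1.35 and 2.96) and 4.03 in tumor Tregs (3.10 and 9.89), against 2.33, 2.26 and 3.02 for transcripts over genes. In whole tumor the members were thus below the transcripts over genes, and close to the single-exon transcripts among those, at 1.78 and 2.0. In tumor Tregs no member without a gene symbol was listed below an FPKM of 2.72 or a coverage (mean read depth) of 2.57, so a lower transcript had no value there. FPKM of whole tumor and tumor Tregs came from different programs, and their levels are only set side by side.

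A few members had extreme values. An FPKM of at least 1000 was listed for 18 of 362 members with Control SMO, 21 of 584 with LFPRLR SMO and 9 of 79 in tumor Tregs. Of these 14, 15 and 1 were below 300 bases. Among transcripts over genes 49 of 22119, 48 of 31324 and 34 of 4759 had such a value. The highest member, at chromosome 1, 122357128 to 122357319, lay 104947 bases from Gm28590. It was only 192 bases long and was at 1.78e+06 with Control SMO. Its counterpart with LFPRLR SMO was 201 bases long and at 803897. With LFPRLR SMO this one transcript held 22.3% of the sum of FPKM times length over the library, the members together held 41.6%, and without it they held 24.8%. With Control SMO the members held 8.58%, and 4.95% without the highest member. The Control SMO sum also includes a transcript over a gene at an FPKM of 7.65e+07. Counting only transcripts of at least 300 bases, the share of the members was 15.0% for Control SMO against 11.4% for LFPRLR SMO. The order was thus reversed, so the shares over all lengths do not show a rise with treatment. The whole tumor files give each FPKM a lower and upper bound. An FPKM within its own bounds was listed for 86.2% and 89.7% of the members, but only for 0 of 29 and 3 of 27 below 300 bases. Transcripts over genes were alike in this, at 94.1% and 95.4%, but only 12 of 177 and 14 of 275 below 300 bases.

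**Figure D2:**
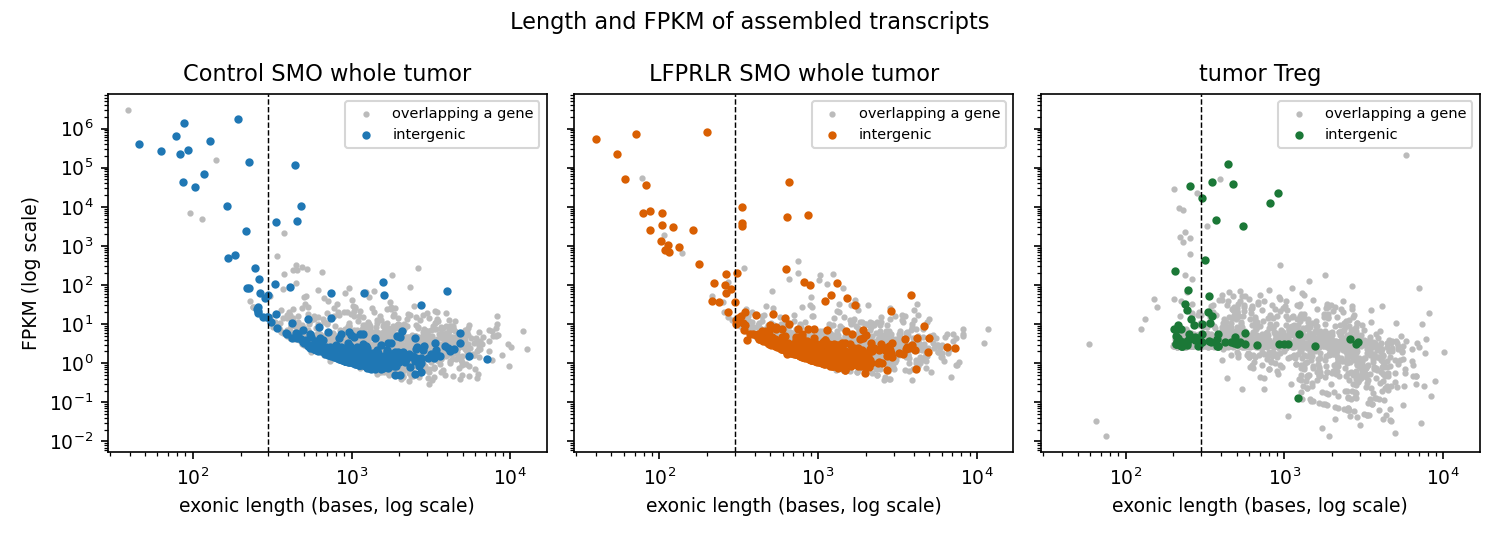
FPKM against exonic length, both on log scales, of the intergenic transcripts (coloured) and of 1500 randomly drawn transcripts over genes (grey) in each library, with a dashed line at 300 bases. In whole tumor most intergenic transcripts form a band near 1 to 3 FPKM, and most values of at least 1000 lie left of the line.

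Among members of at least 300 bases, the highest were largely the same loci in the 3 libraries. A transcript at chromosome 3, 5860335 to 5860777, between genes with Gm37350 as the nearest at 20054 bases, was at an FPKM of 117619 with Control SMO, 42640 with LFPRLR SMO and 126016 in tumor Tregs, and it came first in each. One over the RefSeq noncoding gene Gm36876 on chromosome 11 (109011633 to 109012116) was at 10640, 5468 and 39052. One on chromosome 6 (3201240 to 3201694), upstream of the pseudogene Gm2651, was at 4426, 10114 and 21846, and one on chromosome 16 (17222315 to 17222650), downstream of Rimbp3, was at 4122, 3822 and 16300. The remaining place was taken with Control SMO by a transcript over Gm40892 (chromosome 12, 92885520 to 92887098) at 116, with LFPRLR SMO by one on chromosome 2 (22744266 to 22745126) at 6161, and in tumor Tregs by one on chromosome 8 (15519774 to 15520125) at 42467. Each whole tumor FPKM in this paragraph lay above its own upper bound, although these members had at least 300 bases. On chromosome 3 the upper bounds were 54361 with Control SMO and 27852 with LFPRLR SMO. On chromosome 16 they were 1326 and 1329. No bounds were listed for tumor Tregs.

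Members lay near genes more often than intergenic bases do. The median distance to the nearest gene was 3269.5 bases with Control SMO, 3492.5 with LFPRLR SMO and 7299 in tumor Tregs. Within 5 kb of a gene lay 57.5% (52.2 to 62.6%), 58.9% (54.8 to 62.9%) and 39.2% (28.4 to 50.9%) of the members, whereas 19.8% of all intergenic bases lay that near. With 2, 17 and 2 members within 50 bases of a gene, and 10, 13 and 1 transcripts left out for an overlap of 50 bases or less, few transcripts stood at the border of the rule. The members farthest from any gene on the autosomes and the X chromosome were at 125544 bases with Control SMO (chromosome 5, 6184776 to 6185766, FPKM 5.26), 189679 with LFPRLR SMO (chromosome 1, 102763648 to 102763735, only 88 bases long) and 119399 in tumor Tregs (chromosome 2, 172744491 to 172744864, FPKM 4.05).

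**Figure D3:**
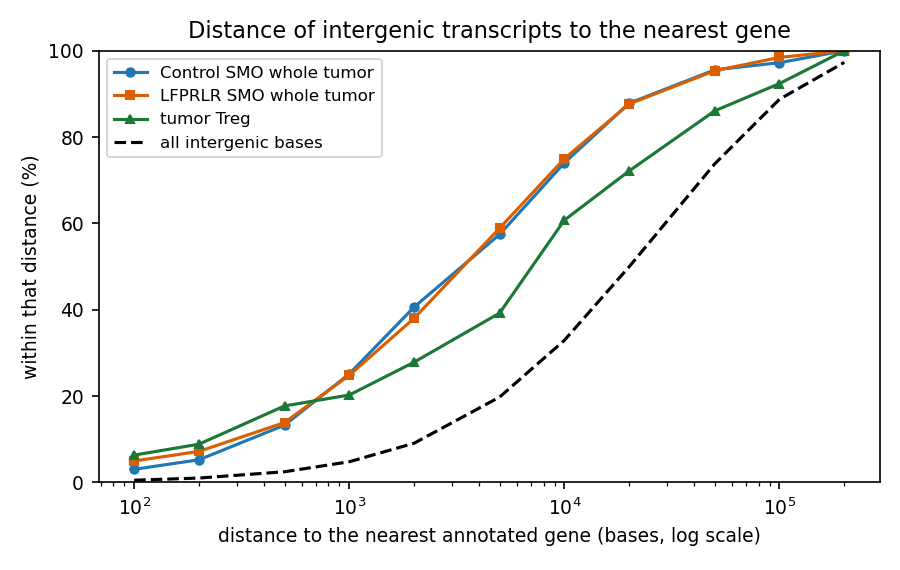
Percentage of intergenic transcripts within a given distance of the nearest annotated gene (bases, log scale) in each library, and of all intergenic bases (dashed). At 5 kb both whole tumor libraries stand at 57.5% and 58.9%, tumor Tregs at 39.2% and all intergenic bases at 19.8%.

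Members near protein-coding genes lay mostly downstream, by a share that varied between the single libraries. Downstream means past the 3′ end of the gene and upstream before its 5′ end. Of the members whose nearest gene was protein-coding and within 5 kb, 128 of 145 were downstream with Control SMO (88.3%, 81.9 to 93.0%), 172 of 228 with LFPRLR SMO (75.4%, 69.3 to 80.9%) and 15 of 23 in tumor Tregs (65.2%, 42.7 to 83.6%). By the midpoint of each member, 35.2% of all members with Control SMO, 28.5% with LFPRLR SMO and 19% in tumor Tregs lay within 5 kb downstream of a protein-coding gene, where 4.16% of intergenic bases lay. On the upstream side the shares were 4.43% (2.55 to 7.10%), 9.11% (6.90 to 11.7%) and 10.1% (4.47 to 19%), against 4.20% of intergenic bases. The upstream share with Control SMO was thus close to that of the bases, and its interval overlapped those of the other libraries. The tumor Treg interval overlapped those of both whole tumor libraries on the downstream side as well.

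Genes with a member past their GENCODE 3′ end were mostly listed themselves. In RefSeq some of these members, such as those at Ifnar1 and Vash1, lay over a longer model of the same gene. With Control SMO 96 of the 108 protein-coding genes with a member within 5 kb downstream had a level above 0, and with LFPRLR SMO 129 of 138, that is 88.9% and 93.5%, whereas 43.7% and 45.3% of all protein-coding genes did. Such a level is the sum of FPKM times shared exon bases over the exon length of the gene. Of the genes with a member within 5 kb upstream, 11 of 16 and 34 of 53 had a level above 0 (68.8% and 64.2%). The median downstream member was at an FPKM of 1.5 and 1.71, and the median gene beside it at 2.20 and 2.80. Beside Npm1, the gene of nucleophosmin at 108 and 100 FPKM, the locus 325 bases past its end was at 2.45 and 1.09. Beside Dusp4, a phosphatase of MAP kinases at 4.55 and 4.36, the locus 1044 bases past its end was at 5.60 and 6.05. A single locus with no spread to set it against, past the end of Ifnar1, the gene of an interferon receptor chain, was at 2.59 FPKM in the Control SMO library and 195 in the LFPRLR SMO library, where it rested on a transcript of 133 bases.

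Within 1 kb upstream of protein-coding genes, most members of the LFPRLR SMO library had no counterpart in the Control SMO library. With LFPRLR SMO 29 members lay within 1 kb upstream (4.97% of members, 3.35 to 7.05%), and with Control SMO 7 did (1.93%, 0.781 to 3.94%). Of the 29 with LFPRLR SMO only 2 shared an exon base with any transcript of the Control SMO library (6.90%, 0.846 to 22.8%), while 49 of the 77 within 1 kb downstream did (63.6%, 51.9 to 74.3%). Over all LFPRLR SMO members the share was 45.4%, and over transcripts overlapping genes it was 69.2%, or 45.6% for those with 1 exon. Of the 7 with Control SMO, 6 were found with LFPRLR SMO, as were 40 of its 61 downstream. These counts depend on the annotation, since 17 of the 29 and 4 of the 7 lay over a RefSeq gene, for 12 and 3 of them the gene of the same symbol. Outside RefSeq genes 12 members remained with LFPRLR SMO, of which 1 was found with Control SMO, and 3 with Control SMO, all found with LFPRLR SMO. The LFPRLR SMO library also listed more unspliced transcripts over genes, 16514 against 7260, and how far that bears on the upstream members was not tested.

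**Figure D4:**
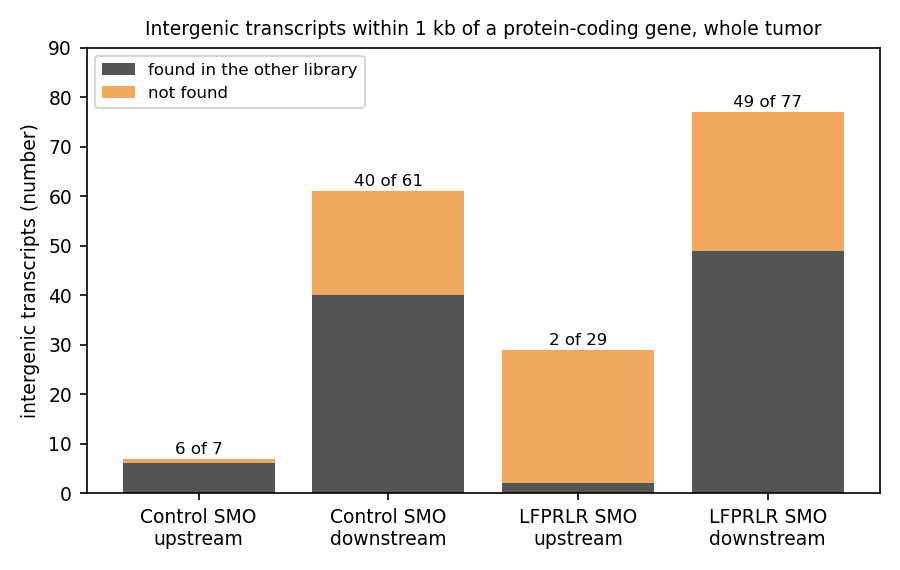
Number of intergenic transcripts within 1 kb upstream or downstream of a protein-coding gene in the whole tumor libraries, split by whether an exon base was shared with any transcript of the other whole tumor library. Of the 29 upstream transcripts with LFPRLR SMO 2 were found with Control SMO, against 49 of the 77 downstream.

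The genes beside the 29 were named after their values were seen, and distances are to the GENCODE gene. Among them were genes of chromatin proteins, with a transcript at an FPKM of 3.13 that lay 21 bases before Kmt2d, one at 2.86 that lay 58 bases before Chd7, a chromatin remodeller, one at 1.42 that lay 206 bases before Kat6a, a histone acetyltransferase, and one at 1.51 that lay 223 bases before Nipbl, which loads cohesin. In RefSeq the models of Kmt2d and Nipbl are longer, and these transcripts lay within them. Others lay before signaling genes, at 4.44 and 135 bases before Sos2, at 2.82 and 245 bases before the Notch ligand gene Jag1, and at 1.48 and 257 bases before Ski, which represses TGF-β signaling. Before Itga3, the gene of integrin α3, one was at 1.93 and 71 bases away, and before Foxo3, a forkhead transcription factor gene, one was at 2.0 and 910 bases away. These are single members of 1 library and no theme among the genes was tested. The 20 genes listed in both libraries had a median level of 2.47 FPKM under Control SMO and 3.11 FPKM under LFPRLR SMO. The median of their log2 ratios was 0.14, and 11 of the 20 were higher with LFPRLR SMO. Over all loci listed in both libraries, 5925 of 12204 were higher with LFPRLR SMO.

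Exons of the members reached into RefSeq promoter windows in 5 members with Control SMO (1.38%, 0.450 to 3.19%), 25 with LFPRLR SMO (4.28%, 2.79 to 6.25%) and 5 in tumor Tregs (6.33%, 2.09 to 14.2%). The 12 windows of protein-coding genes reached with LFPRLR SMO had a median of 25.5 CpG dinucleotides and 65.7% G and C, against 13 and 56.3% over all 21263 windows of protein-coding genes. GGGCGG, the GC box, was present on either strand in 6 of these 12 windows (50%), against 46.2% of all, and TATAAA on either strand in 2 (16.7%), against 12.6%. The windows printed above for Kmt2d and Sos2 belong to this group, with 4 and 3 GC boxes before the gene start.

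About 40% of the members lay over a RefSeq gene. There were 147 with Control SMO (40.6%), 234 with LFPRLR SMO (40.1%) and 34 in tumor Tregs (43.0%), and protein-coding genes were among them for 104, 151 and 14. For 82, 116 and 6 the RefSeq gene was also the nearest GENCODE gene, with a longer model in RefSeq. Noncoding RNA genes were overlapped by 33, 69 and 12. A tRNA gene was overlapped by 2, 5 and 1. The tRNA gene n-TYgta3, 1643 bases upstream of Abt1 on chromosome 13, lay in a transcript of 219 bases at an FPKM of 85.8 under Control SMO and in one of 237 bases at 37.3 under LFPRLR SMO. Outside the genes of both annotations lay 215, 350 and 45 members.

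Members were spread over all 21 chromosomes in whole tumor and over 20 in tumor Tregs, where chromosome 14 had none. Per Mb of intergenic sequence there were 0.251 with Control SMO, 0.406 with LFPRLR SMO and 0.0549 in tumor Tregs. Chromosome 14 was also low in whole tumor, with 1 member with Control SMO and 7 with LFPRLR SMO. Chromosome 6 had the most per Mb with Control SMO, 35 members or 0.463, and chromosome 17 with LFPRLR SMO, 40 members or 0.863, while in tumor Tregs chromosome 6 held 12 of the 79. Although the mice were female, 3, 9 and 4 members were placed on chromosome Y, and 3, 7 and 2 of them lay beyond 90 Mb, at its distal end, where the mouse Y chromosome holds sequence shared with the X.

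Many members lay close to another member, and whether such members belong to one RNA was not tested. Of the members, 36.5% with Control SMO, 34.8% with LFPRLR SMO and 25.3% in tumor Tregs lay within 1000 bases of another member of their library, and these formed 49, 72 and 9 stretches of 2 or more members. The runs with most members in the Control SMO library had 7 each. One lay over Gm40892, a predicted protein-coding gene of RefSeq about 112 kb from the nearest GENCODE gene (chromosome 12, 92885076 to 92889781, distance 112429 bases), with a median FPKM of 116. With LFPRLR SMO 6 members covered the same locus at a median of 80.9. The other, on chromosome 6, 8502 bases from Gm27019 (31071998 to 31079993), at a median of 1.93 with Control SMO, was matched by 7 at 2.24 with LFPRLR SMO. Members are therefore not independent of each other, which the intervals do not take into account.

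The libraries shared the members in part. Of the members with Control SMO 68.2% (63.2 to 73.0%, 247 of 362) shared an exon base with a transcript of the LFPRLR SMO library, and of those with LFPRLR SMO 45.4% (41.3 to 49.5%, 265 of 584) with a transcript of the Control SMO library. Transcripts over genes were found in the other library more often, at 87.2% and 69.2%, while among those with a single exon the shares were 76.7% and 45.6%, the latter within the interval of the members. Of the tumor Treg members 44.3% (33.1 to 55.9%, 35 of 79) were found in either whole tumor library, against 84.1% of the transcripts over genes and 52.2% of those with a single exon.

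In whole tumor, members found again had higher medians of FPKM and of length. With Control SMO the median FPKM was 1.73 for those found with LFPRLR SMO and 1.37 for the others, and the median length 1139 against 935 bases. With LFPRLR SMO it was 2.13 against 1.66, and 1099 against 915 bases. In tumor Tregs the order of the levels was the opposite, with a median FPKM of 3.54 for those found in whole tumor and 4.5 for the others, while their median lengths were 420 and 274.5 bases. Below an FPKM of 1.5, 57.7% of the Control SMO members and 29.0% of the LFPRLR SMO members were found, and at 5 or more 77.8% and 64.1%. All 8 spliced members with LFPRLR SMO and 6 of 7 with Control SMO shared a base with the other library.

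Joining the transcripts of all libraries that share an exon base gave 662 loci made of intergenic transcripts only. Of these 318 held transcripts of LFPRLR SMO alone, 112 of Control SMO alone and 44 of tumor Tregs alone, 170 were in both whole tumor libraries, 3 in Control SMO and tumor Tregs, and 15 in all 3. A further 63 loci joined intergenic transcripts to transcripts over a gene.

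The level of a locus in a library is the sum of FPKM times length over its transcripts there, divided by the exonic bases of the locus. Those bases are taken over all libraries together, so a short transcript in a long locus gives a level below its own FPKM. The highest of the 15 loci in all 3 libraries was that on chromosome 3 (5860335 to 5860988), at 79671 FPKM with Control SMO, 42510 with LFPRLR SMO and 84396 in tumor Tregs. In the same order of libraries, the locus at Gm36876 was at 8085, 5442 and 28998 FPKM. The locus downstream of Rimbp3 was at 3170, 2904 and 11265 FPKM, and that near Gm2651 at 2030, 3364 and 30001 FPKM. All 4 were above 1000 in every library, but in whole tumor each level rested on an FPKM above its own upper bound.

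The loci next in order had levels of 28.8 to 209 FPKM in whole tumor and 0.285 to 5.57 FPKM in tumor Tregs. Gm11223, a pseudogene 37 bases away from its locus on chromosome 4 (69925212 to 69925592), had 209 and 207 FPKM beside it in the whole tumor libraries, Control SMO first, and 5.57 in tumor Tregs. Over Gm40892 a locus from 92885044 to 92887103 was at 107, 77.1 and 2.81 FPKM in the order Control SMO, LFPRLR SMO and tumor Tregs. The next, from 92888672 to 92889800, was at 102, 37.3 and 2.73 FPKM, and the last, from 92889927 to 92892440, at 35.6, 28.8 and 0.285 FPKM. The tumor Treg transcripts of the next and the last locus (92888806 to 92890160) were themselves at FPKM 3.09 and 3.10, and covered only part of the last. At the immunoglobulin kappa locus on chromosome 6, upstream of the variable segment Igkv14-111, a locus from 68247801 to 68251769 was at 69.6, 55.4 and 2.09 in turn, and one from 68245329 to 68246531 at 64.2, 54.6 and 1.38. The whole tumor and tumor Treg values came from different programs, so only their order within a library can be read. In tumor Tregs that order also depends on how much of each locus was covered.

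Between treatments, the 185 intergenic loci listed in both whole tumor libraries had a median log2 ratio, LFPRLR SMO over Control SMO with 0.1 FPKM added to each level, of 0.23 (interval of the median 0.08 to 0.33). Over all 12204 loci listed in both it was -0.02, and over the 3352 single-exon loci that overlapped a gene 0.27, so the intergenic loci stood beside other unspliced loci. By a factor of 2 or more, 18 of the 185 were higher with LFPRLR SMO (9.73%) and 16 lower (8.65%), where 5.35% and 2.97% of all loci were. Of the single-exon loci that overlapped a gene, 13.5% were higher and 2.57% lower. In the 161 loci whose transcripts all had at least 300 bases, 15 were higher and 4 lower (9.32% and 2.48%), and in the 24 with a shorter transcript 3 were higher and 12 lower. The median log2 ratio was 0.25 in the 161 (0.13 to 0.35) and -0.78 in the 24 (-2.41 to 0.54). In the 36 loci with at least 5 FPKM in both libraries it was -0.25 (-0.91 to 0.33), with 3 higher and 11 lower (8.33% and 30.6%). No share over all loci cut in the same way by length or level is given, so these counts have nothing to be set against.

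**Figure D5:**
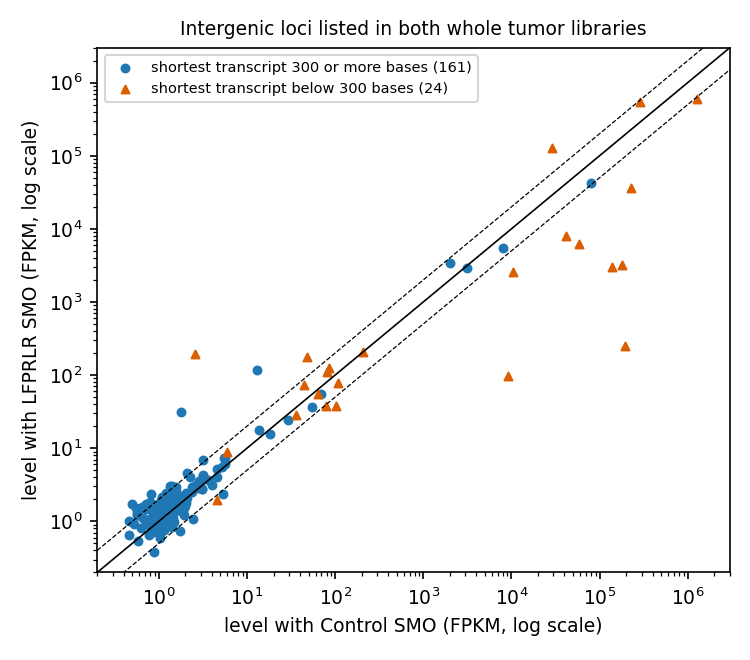
Level with LFPRLR SMO against level with Control SMO (FPKM, log scales) of the 185 intergenic loci listed in both whole tumor libraries, with lines at equal levels (solid) and at a factor of 2 (dashed). The 161 loci without a transcript below 300 bases lie mostly near the line of equal levels, and 12 of the 24 with one lie below the lower dashed line.

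Among loci of at least 5 FPKM in both libraries, the 5 largest falls all rested on a transcript below 300 bases. The locus upstream of Camsap2 on chromosome 1 (136364705 to 136365336) was at 194692 FPKM in the Control SMO library and 253 in the other, a log2 ratio of -9.59, and its Control SMO transcript had 88 bases. The others were on chromosome 9 (3258050 to 3258944, 9241 and 97.8 FPKM), chromosome 1 (102628009 to 102628341, 181949 and 3217), chromosome 2 (90395071 to 90395192, 136758 and 2977) and chromosome 2 (22744266 to 22745126, 58759 and 6161). Every Control SMO member below 300 bases had an FPKM outside its own bounds. In the locus from 90395071 the Control SMO transcript was at 264832, with bounds of 52.0 to 104. The LFPRLR SMO transcript there was at 2977, with bounds of 36.4 to 68.8, so the bounds of the libraries overlapped.

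Of the 5 largest rises among loci of at least 5 FPKM in both libraries, the first had no short transcript. The locus on chromosome 15 from 75086235 to 75087045, 7140 bases from the noncoding gene Gm28502 and in no RefSeq gene, had 1 transcript in each library, of at least 738 bases, and was at 12.8 FPKM in the Control SMO library and 118 in the LFPRLR SMO library, a log2 ratio of 3.19. The locus upstream of Glis2, a zinc finger transcription factor gene, on chromosome 16 (4590270 to 4590614) was at 48.1 and 177, with a transcript of 178 bases. Its transcripts were above their bounds, at 62.2 (7.89 to 18.4) with Control SMO and 344 (15.1 to 36.8) with LFPRLR SMO. Loci on chromosome 18 from 85697926 and from 85698199, with transcripts of 54 and 71 bases, were at 28805 and 128125, and at 284632 and 545309. A locus on chromosome 19 (61199644 to 61199945) was at 44.5 and 73.9. A lower locus over the RefSeq noncoding gene Gm40237, 2975 bases upstream of Tmem125 on chromosome 4 (118547020 to 118548738), which was named after its value was seen, was at 1.80 and 31.7, with transcripts of 546 bases or more. None of these ratios had a replicate check.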

How the data were processed

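The members and lists were chosen with earlier results of these data known. The whole tumor libraries hold, per the labels and the deposited files, transcripts assembled by Cufflinks on mm10, each with an FPKM, its bounds and a coverage (mean read depth). The authors also deposited a score of up to 1000 that ranks a transcript within its assembled gene, which was not used. The tumor Treg file headers name StringTie 1.2.3 with a reference annotation. The submitters' processing notes name HISAT2 2.0.4 and Cuffdiff 2.0.2. Read counts and read length are not given in the sources used here, so the depth is unknown.

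FPKM values were used as the authors deposited them. GENCODE M21 gave the gene spans, and RefSeq (GRCm38.p6) gave 2 comparisons, gene spans and promoter sequences. Named members were, in each library, the 5 highest of at least 300 bases, the 3 with most exons, the longest and the farthest, then loci in all 3 libraries and the 5 largest rises and falls at 5 FPKM or more. Shares have exact Clopper-Pearson intervals. Overlap counting was tested on simulated intervals. Python 3.11.15, numpy, scipy and matplotlib were used.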

Additional observations from a re-analysis of the deposited data

How the results depend on the processing

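Of 75 alternative values, 60 stayed within 1.5 times the count, or within the interval of the share or median, and 15 moved. With spans of protein-coding genes only, the members numbered 938 with Control SMO, 1457 with LFPRLR SMO and 370 in tumor Tregs. Of the 362 and 584 whole tumor members, 44.8% and 43.2% lay within 5 kb of a protein-coding gene, whatever gene was nearest. With RefSeq gene spans added, chosen after seeing the data, they numbered 215, 350 and 45, and 39.7% of the LFPRLR SMO and 28.9% of the tumor Treg members were found in another library. The share within 1 kb upstream of a protein-coding gene was then 1.40%, 3.43% and 6.67%, from 3, 12 and 3 members. At least 300 bases left 41 members in tumor Tregs and 4 loci lower by a factor of 2, and a pseudocount of 1 left 5 higher. Sharing 50% of the shorter transcript gave 61.9% for Control SMO, and counting intergenic transcripts of the other library alone gave 40.2% for LFPRLR SMO. The median log2 ratio ran from 0.14 to 0.25 under its alternatives. In loci of at least 5 FPKM in both libraries it was negative, at -0.25, with an interval of -0.91 to 0.33. No paired analysis was possible because each group was 1 pooled library. With no read counts, a transcript without a value is not shown to be absent.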
